A study of Homo sapiens with 18 samples.

Results

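The mevalonate pathway enzymes described here were chosen by gene name, 8 genes of the 23713 rows of a table of mRNA levels in MOLM-13, a human acute monocytic leukaemia cell line. Earlier results of these data were known when they were chosen. They run from acetoacetyl-CoA to farnesyl and geranylgeranyl diphosphate: ACAT2, HMGCS1, MVK, PMVK, MVD, IDI1, FDPS and GGPS1. All 8 were found and all 8 passed the filter on low values, which kept 11051 genes. The labels name 18 samples, 3 in each of 6 groups: dTRIM24, IACS-9571 or DMSO for 24 h, and dTRIM24, IACS-9571 or DMSO for 4 h. dTRIM24 is a degrader that couples a bromodomain ligand to a ligand of the VHL ubiquitin ligase, aimed at the TRIM24 protein. IACS-9571 is a ligand of the TRIM24 and BRPF1 bromodomains without the VHL part. DMSO is the solvent control. The labels state no doses, and every group is the same cell line grown in RPMI medium with serum.

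The pathway turns acetyl units into isoprenoid diphosphates, from which cells make cholesterol, dolichol, ubiquinone and the lipid anchors of prenylated proteins. Its genes are classic targets of SREBP-2, a membrane-bound transcription factor that is cut free and moves to the nucleus when the endoplasmic reticulum is poor in sterol. At many such promoters SREBP-2 acts with the general factors NF-Y, which binds the box CCAAT, and Sp1, which binds the box GGGCGG.

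Promoter sequences are shown so that these boxes can be read in the 7 members that have a window. HMGCS1, MVK, MVD, IDI1 and FDPS hold several NF-Y boxes, GGPS1 holds 1 and PMVK 0. The windows are the 250 bases before an annotated transcript start, from RefSeq on GRCh38.p14, written 5′ to 3′. Capitals mark CCAAT, or ATTGG where the box lies on the other strand. ACAT2 has no window in the table. For genes with several starts the window with the most NF-Y boxes is printed.
HMGCS1 (chr5:43313413-43313662, minus strand): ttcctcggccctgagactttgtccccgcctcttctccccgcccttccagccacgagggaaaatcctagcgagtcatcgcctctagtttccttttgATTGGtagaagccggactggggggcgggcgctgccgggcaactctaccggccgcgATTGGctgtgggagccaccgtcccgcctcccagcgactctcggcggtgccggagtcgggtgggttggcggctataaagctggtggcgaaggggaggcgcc
MVK (chr12:109573544-109573793, plus strand): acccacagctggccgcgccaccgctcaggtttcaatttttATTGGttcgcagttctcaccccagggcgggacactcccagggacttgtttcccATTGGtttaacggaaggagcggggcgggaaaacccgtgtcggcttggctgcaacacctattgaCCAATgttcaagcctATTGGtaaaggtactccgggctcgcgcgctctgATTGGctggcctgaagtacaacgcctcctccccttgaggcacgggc
MVD (chr16:88663092-88663341, minus strand): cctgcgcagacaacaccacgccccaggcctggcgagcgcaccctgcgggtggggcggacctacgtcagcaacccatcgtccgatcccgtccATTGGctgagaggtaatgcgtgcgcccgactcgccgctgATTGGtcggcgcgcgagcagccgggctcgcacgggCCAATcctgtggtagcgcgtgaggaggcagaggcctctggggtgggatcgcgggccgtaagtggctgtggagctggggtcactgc
IDI1 (chr10:1048887-1049136, minus strand): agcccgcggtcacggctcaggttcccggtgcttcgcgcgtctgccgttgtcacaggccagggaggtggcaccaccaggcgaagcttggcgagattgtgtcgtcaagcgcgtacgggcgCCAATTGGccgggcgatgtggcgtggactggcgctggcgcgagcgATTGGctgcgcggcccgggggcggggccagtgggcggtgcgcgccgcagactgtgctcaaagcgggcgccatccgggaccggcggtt
FDPS (chr1:155308616-155308865, plus strand): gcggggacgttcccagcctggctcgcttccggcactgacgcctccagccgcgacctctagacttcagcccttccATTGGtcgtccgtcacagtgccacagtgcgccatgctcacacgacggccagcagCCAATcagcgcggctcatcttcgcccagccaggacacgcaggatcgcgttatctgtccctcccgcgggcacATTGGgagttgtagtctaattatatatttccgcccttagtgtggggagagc
PMVK (chr1:154936720-154936969, minus strand): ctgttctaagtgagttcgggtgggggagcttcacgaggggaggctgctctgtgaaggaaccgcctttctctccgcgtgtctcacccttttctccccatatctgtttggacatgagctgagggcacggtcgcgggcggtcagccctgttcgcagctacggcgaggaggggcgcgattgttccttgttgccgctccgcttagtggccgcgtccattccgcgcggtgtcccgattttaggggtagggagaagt
GGPS1 (chr1:235328320-235328569, plus strand): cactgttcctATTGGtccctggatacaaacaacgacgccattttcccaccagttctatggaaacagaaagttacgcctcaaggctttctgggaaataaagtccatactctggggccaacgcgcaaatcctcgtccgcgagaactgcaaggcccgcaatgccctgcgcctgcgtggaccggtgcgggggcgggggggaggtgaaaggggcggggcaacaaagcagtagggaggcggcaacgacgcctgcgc

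Of 27305 genes with a promoter window, 37.0% had at least 1 NF-Y box in their best window, 11.5% at least 2 and 3.55% at least 3. The MVK window held 5 matches, those of MVD, IDI1 and FDPS 3 each and that of HMGCS1 2. In IDI1 a pair of the 3 matches overlap in CCAATTGG, 1 on each strand. The count depends on the start chosen: the other HMGCS1 window held 0, the other IDI1 windows 0 and 2, and the other GGPS1 windows 0 and 0. Sp1 boxes were present in each printed window, 1 or 2 a window. Of all genes, 46.2% had an Sp1 box in their window with the most Sp1 boxes. The printed windows were picked by NF-Y boxes instead, so the 2 are not chosen alike. For IDI1 the window with the most Sp1 boxes held 3. The sterol element searched as TCACNCCAC on both strands matched no window of a member and 1.09% of genes, and the E-box CACGTG matched no member and 7.73% of genes. A match is only a run of letters. At 4 h the difference from DMSO with dTRIM24 was 1.05 for MVK, with 5 NF-Y boxes. It was 0.54 for MVD, 1.19 for IDI1 and 0.12 for FDPS, with 3 each. HMGCS1, with 2, stood at 1.92, GGPS1, with 1, at 0.02 and PMVK, with 0, at -0.13. With IACS-9571 the values in the same order were 1.47, 1.14, 1.38, 0.35, 2.32, 0.06 and 0.00. A relation between boxes and differences was not tested.

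**Figure D1:**
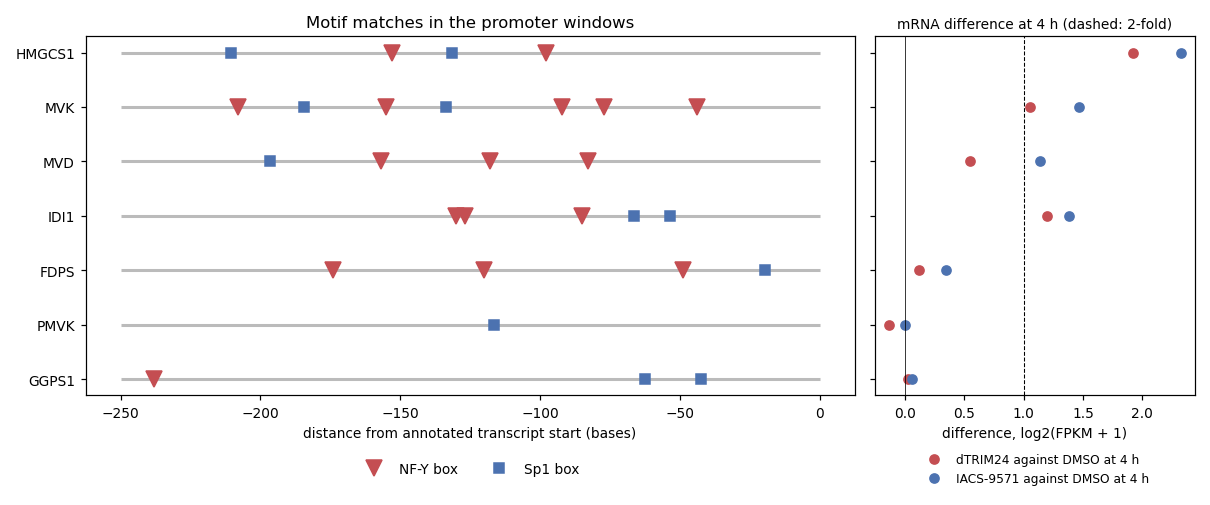
The left panel places matches of the NF-Y box (triangles) and the Sp1 box (squares) by distance in bases from the annotated start, 1 line per gene. The right panel gives the log2(FPKM + 1) difference from DMSO at 4 h with dTRIM24 (red) and IACS-9571 (blue). PMVK and GGPS1, with 0 and 1 NF-Y boxes, lie at -0.13 and 0.02 with dTRIM24. FDPS, with 3, lies at 0.12 with dTRIM24 and 0.35 with IACS-9571. HMGCS1, MVK, MVD and IDI1, with 2 to 5, lie at 1.92, 1.05, 0.54 and 1.19 with dTRIM24.

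The values are FPKM, fragments scaled by transcript length and library, with 1 deposited mean per group. Only these means were used, which leaves every value without a replicate error and every difference untested, at a read depth that is unknown. A difference means a difference of log2(FPKM + 1) between group means, and past 2-fold means at least 1 on that scale. As a scale for technical spread, 25 ERCC spike-in RNAs differed between groups with an SD of 0.11 to 0.22 on the same scale. Their median difference at 4 h was -0.01 for IACS-9571 against DMSO and 0.02 for dTRIM24 against IACS-9571. Rescaling to the spike-ins, given below as an alternative, instead used the median spike-in level of each group. At 4 h this level was 31.7 FPKM in IACS-9571, 30.0 FPKM in dTRIM24 and 29.7 FPKM in DMSO, so the rescaling shifted these 2 comparisons the other way. The median difference of all kept genes was between -0.02 and 0.00 in the 3 comparisons of compounds at 4 h. At 24 h it was 0.26 for dTRIM24 against DMSO, 0.28 for dTRIM24 against IACS-9571 and -0.02 for IACS-9571 against DMSO. Of 12 myeloid marker genes 11 were kept, at very unlike levels. In each group ELANE had 620 FPKM or more, AZU1 576 FPKM or more, LYZ 302 FPKM or more and CEBPA 115 FPKM or more. SPI1 had 51.6 to 80.1 FPKM, HOXA9 25.4 to 33.9 FPKM, CD33 25.6 to 31.7 FPKM and MEIS1 10.4 to 14.3 FPKM. MPO had 3.55 to 8.63 FPKM, ITGAM 2.13 to 2.65 FPKM and CSF1R 0.853 to 1.22 FPKM, and the monocyte marker CD14 stayed at 0.208 FPKM or less. Of 9 markers of other cell types only KRT8, a keratin, reached 1 FPKM, with at most 2.46 FPKM. At 4 h the 11 kept myeloid markers had a median difference from DMSO of -0.18 with dTRIM24 and -0.17 with IACS-9571, and their part in the values below was not tested.

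In DMSO cells the 8 mRNAs covered a wide range of levels, which FPKM allow to be compared because they are per length. FDPS, the synthase that makes farnesyl diphosphate, was the most abundant member in all 6 groups, and at 4 h in DMSO it had 176 FPKM, 42.3% of the summed level of the 8 genes. Below it at 4 h in DMSO stood ACAT2 with 71.5 FPKM, IDI1 with 63.4 FPKM and PMVK with 41.5 FPKM. HMGCS1 with 20.7 FPKM and GGPS1 with 20.01 FPKM lay side by side, and MVD with 12.6 FPKM and MVK with 10.7 FPKM came last. This order also held in DMSO at 24 h and in dTRIM24 at 24 h. In IACS-9571 at 24 h only ACAT2 and IDI1, at 54.9 and 58.1 FPKM, changed places. With 1 mean per group, none of the neighbours in this order can be said to differ beyond their spread.

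At 4 h the means with both compounds stood well above DMSO for ACAT2, HMGCS1, MVK, MVD and IDI1, while those of PMVK and GGPS1 were nearly level. Against DMSO, 4 of the 8 members were past 2-fold higher with IACS-9571, where 0.253% of kept genes were past 2-fold higher. With dTRIM24 it was 3 of the 8, where the share of kept genes was 0.67%. No member was past 2-fold lower with either compound, where the share of kept genes was 0.0362% with IACS-9571 and 0.0181% with dTRIM24. The median difference of the 8 genes from DMSO was 0.58 with dTRIM24, against -0.01 for all kept genes, and 0.99 with IACS-9571, against 0.00 for all kept genes. Both comparisons share the DMSO mean. Because the 8 genes were chosen with earlier results of these data known, the shares of kept genes are a scale and not a test. The summed level of the 8 genes was 629 FPKM with dTRIM24, 751 FPKM with IACS-9571 and 417 FPKM in DMSO.

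**Figure D2:**
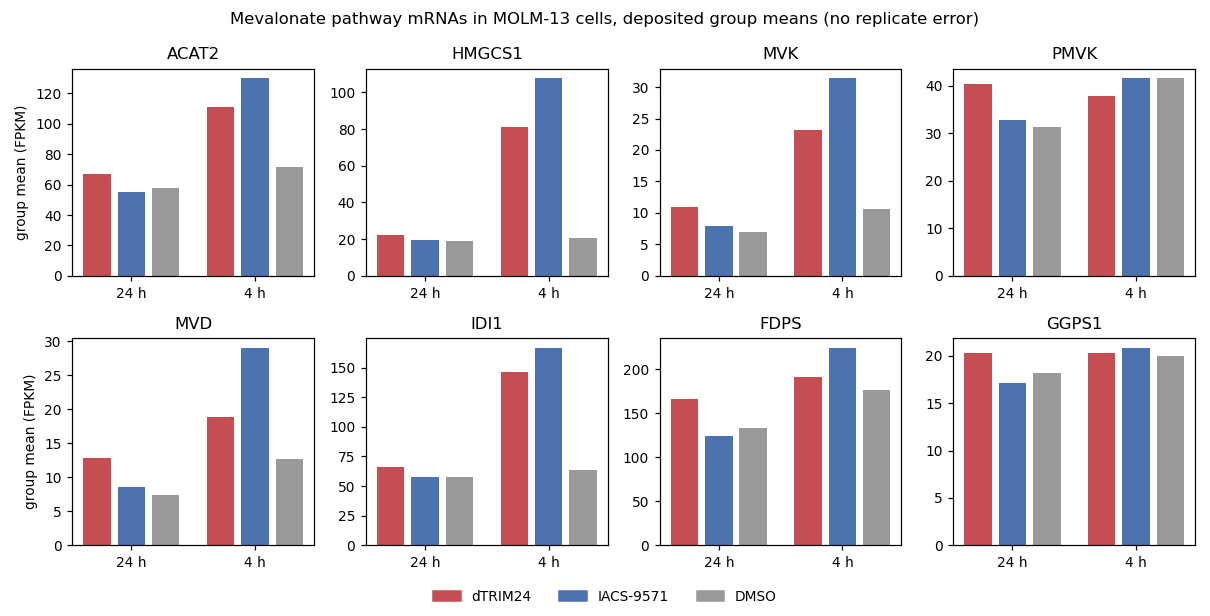
Bars give the deposited mean FPKM of each member in each group, with the 24 h groups left and the 4 h groups right, for dTRIM24 (red), IACS-9571 (blue) and DMSO (grey). There are no error bars because there is 1 mean per group. At 4 h HMGCS1 had 81.1 FPKM in dTRIM24 and 108 FPKM in IACS-9571 against 20.7 FPKM in DMSO, while GGPS1 lies between 17.1 and 20.8 FPKM in all groups.

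The pathway opens with ACAT2, the cytosolic thiolase that joins acetyl-CoA units to acetoacetyl-CoA. At 4 h it had 111 FPKM in dTRIM24 and 130 FPKM in IACS-9571, against 71.5 FPKM in DMSO. Both compound means lay above DMSO but short of 2-fold, by 0.62 with dTRIM24 and 0.85 with IACS-9571. The ACAT2 gene overlaps TCP1, a chaperonin subunit gene, in the RefSeq annotation. Whether counting used strand is not given in the sources used here. TCP1 had 378 FPKM in dTRIM24, 383 FPKM in IACS-9571 and 378 FPKM in DMSO at 4 h, a far higher level that was nearly the same in the 3 groups. ACAT1, the mitochondrial thiolase, had 67.0 FPKM in dTRIM24, 67.2 FPKM in IACS-9571 and 64.2 FPKM in DMSO. It differed from DMSO by 0.06 with either compound.

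HMGCS1, which adds the next acetyl unit to form HMG-CoA, differed most of the 8 at 4 h. It stood above DMSO by 1.92 with dTRIM24 and 2.32 with IACS-9571, at rank 54 with dTRIM24 and rank 6 with IACS-9571 among the differences of all kept genes. Its share of the summed level of the 8 genes was 12.9% with dTRIM24, 14.3% with IACS-9571 and 4.97% in DMSO.

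Next come the steps that phosphorylate mevalonate and remove its carboxyl group. Their values here are those at 4 h. MVK, the mevalonate kinase, had 23.2 FPKM in dTRIM24 and 31.4 FPKM in IACS-9571, against 10.7 FPKM in DMSO, differences of 1.05 with dTRIM24 and 1.47 with IACS-9571. It stood above MVD and GGPS1 with both compounds and was the lowest of the 8 in DMSO. PMVK, the kinase that acts next, had 37.8 FPKM in dTRIM24, 41.5 FPKM in IACS-9571 and 41.5 FPKM in DMSO. Its difference from DMSO was -0.13 with dTRIM24 and 0.00 with IACS-9571 (-0.10 after rescaling to the spike-ins). MVD, the decarboxylase that yields isopentenyl diphosphate, had 18.9 FPKM in dTRIM24 and 29.03 FPKM in IACS-9571, against 12.6 FPKM in DMSO. It passed 2-fold with IACS-9571 (1.14) and not with dTRIM24 (0.54).

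MVK shares its promoter region with MMAB, a gene of cobalamin metabolism read the other way, and the 300-base promoter entries of both have 211 bases in common. MMAB had 18.0 FPKM in dTRIM24 and 20.2 FPKM in IACS-9571, against 13.4 FPKM in DMSO at 4 h. It was above DMSO by 0.40 with dTRIM24 and 0.56 with IACS-9571, less than MVK on the other side. The difference between the pair was not tested.

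The last 3 members interconvert and join the isoprenoid units. Their values are again those at 4 h. IDI1, the isomerase of isopentenyl diphosphate, had 146 FPKM in dTRIM24 and 167 FPKM in IACS-9571, against 63.4 FPKM in DMSO, past 2-fold with dTRIM24 (1.19) and with IACS-9571 (1.38). IDI2, its paralog and next protein-coding neighbour, had 4.07 FPKM in dTRIM24, 4.21 FPKM in IACS-9571 and 4.24 FPKM in DMSO. FDPS had 191 FPKM in dTRIM24 and 224 FPKM in IACS-9571, against 176 FPKM in DMSO. The differences are 0.12 with dTRIM24 and 0.35 with IACS-9571, and both lie inside the range that holds all but the outer 1% of kept genes on each side. FDPS has processed copies in the genome, and how reads were shared among copies is not given in the sources used here, so its value is uncertain. The 1 copy with a row of its own, FDPSL2A, was at 0.181 FPKM or less.

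GGPS1, the synthase of geranylgeranyl diphosphate, had 20.3 FPKM in dTRIM24, 20.8 FPKM in IACS-9571 and 20.01 FPKM in DMSO at 4 h. Its difference from DMSO was 0.02 with dTRIM24 (-0.08 after removal of the GC content trend) and 0.06 with IACS-9571 (-0.04 after rescaling to the spike-ins). ARID4B, a chromatin gene whose start region GGPS1 overlaps, stood 0.24 above DMSO with either compound. At 20.8 FPKM GGPS1 was the lowest of the 8 with IACS-9571 at 4 h, while 2 members lay below it in DMSO.

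**Figure D3:**
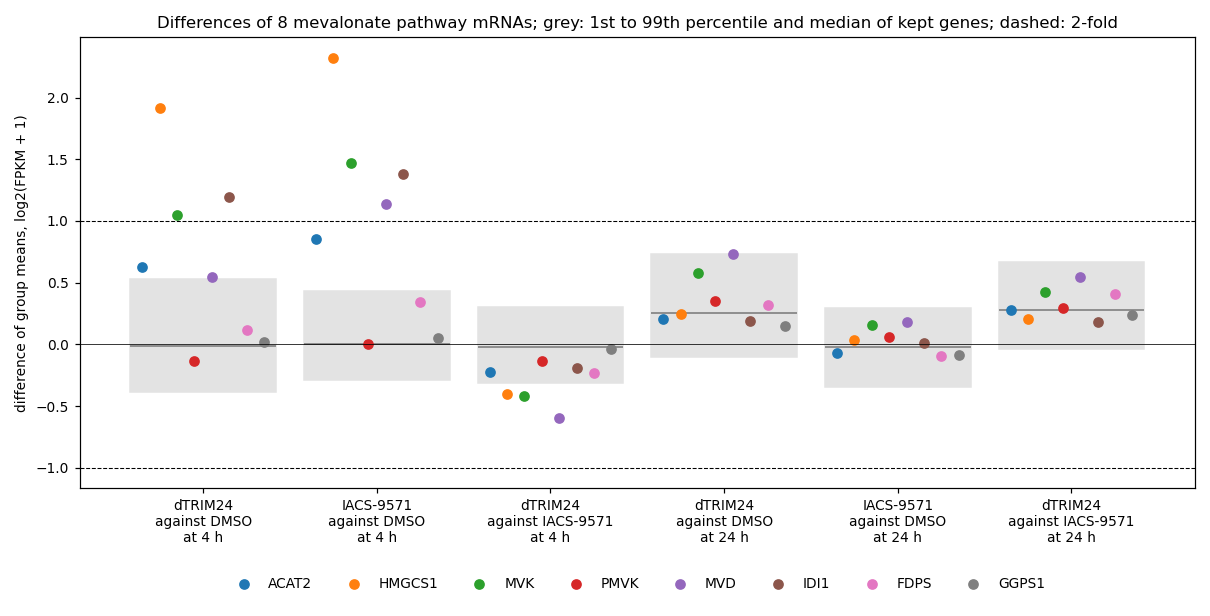
Points give the difference of log2(FPKM + 1) between group means for each of the 8 genes in the 6 comparisons of compounds. Grey boxes span the 1st to 99th percentile of 11051 kept genes, with their median as a line, and dashed lines mark 2-fold. At 4 h HMGCS1, MVK, IDI1, MVD and ACAT2 lie above the box against DMSO with both compounds, and at 24 h all 8 genes lie inside it.

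Set directly against IACS-9571 at 4 h, dTRIM24 had the lower mean for all 8 members as deposited. After rescaling to the median spike-in level of each group GGPS1 was the 1 exception, at 0.05. The median of the spike-in differences themselves was 0.02 here, which would shift values the other way. No member passed 2-fold. The shares of kept genes past 2-fold were 0.0362% lower and 0.561% higher. The median of the 8 differences was -0.23, against -0.02 for all kept genes. MVD had the widest gap, with 18.9 FPKM in dTRIM24 against 29.03 FPKM in IACS-9571, a difference of -0.59. Only 11 kept genes had a lower difference. MVK followed at -0.42 and HMGCS1 at -0.40, ahead of FDPS and ACAT2 at -0.23 each, IDI1 at -0.19, PMVK at -0.13 and GGPS1 at -0.03. The compounds differ by the VHL part of dTRIM24, and equal doses cannot be assumed.

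No member was past 2-fold in the comparisons of compounds at 24 h. For dTRIM24 against DMSO the shares of kept genes past 2-fold were 0.136% higher and 0.0633% lower. For IACS-9571 against DMSO they were 0.0181% higher and 0.154% lower, and for dTRIM24 against IACS-9571 0.199% higher and 0.0181% lower. With IACS-9571 the 8 differences from DMSO lay between -0.09 (FDPS, 0.01 with quantile normalization) and 0.18 (MVD), with a median of 0.03. HMGCS1 had 19.3 FPKM in IACS-9571 against 18.7 FPKM in DMSO, and IDI1 had 58.1 FPKM in IACS-9571 against 57.6 FPKM in DMSO.

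With dTRIM24 at 24 h all 8 members lay above DMSO as deposited, by a median of 0.28, but the median of all kept genes was 0.26. Relative to that median the members stood at 0.02. MVD, at 12.9 FPKM in dTRIM24 against 7.38 FPKM in DMSO, was 0.73 higher, or 0.47 relative to all kept genes. MVK, at 10.98 FPKM in dTRIM24 against 7.04 FPKM in DMSO, was 0.58 higher, or 0.32 relative to them. These are the members with the richest transcripts in G and C, 63.9% for MVD and 60.5% for MVK, closely followed by PMVK with 59.5%. With the trend on GC content taken out MVD and MVK stood at 0.27 and 0.17. HMGCS1, ACAT2, IDI1 and GGPS1 fall on the other side of 0 relative to the median of kept genes, at -0.01, -0.05, -0.06 and -0.11. FDPS stood at 0.06 and PMVK at 0.10 on that scale, PMVK at -0.04 with the GC trend taken out. The part of GC content and of the shift of all genes in these values was not tested further. Against IACS-9571 at 24 h all 8 members were higher with dTRIM24 as deposited, by a median of 0.28, the same as all kept genes. Relative to that median HMGCS1 (-0.07), IDI1 (-0.10) and GGPS1 (-0.04) lay on the other side of 0, with ACAT2 at 0.00, PMVK at 0.02 (-0.10 with the GC trend taken out), FDPS at 0.13 and MVK at 0.15. MVD, at 12.9 FPKM in dTRIM24 against 8.53 FPKM in IACS-9571, kept the largest difference of the 8, 0.55 as deposited and 0.27 relative to all kept genes.

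Compared across time within a treatment, most members were lower at 24 h than at 4 h in the compound groups. With IACS-9571, 5 of the 8 were past 2-fold lower at 24 h, where 0.434% of kept genes were. These were HMGCS1 (-2.42), MVK (-1.86), MVD (-1.66), IDI1 (-1.505) and ACAT2 (-1.23), with a median over kept genes of -0.26. ACAT2 stood at -0.97 relative to that median, so 4 remain past 2-fold there. With dTRIM24, HMGCS1 (-1.81), IDI1 (-1.14) and MVK (-1.01) were past 2-fold lower at 24 h, where 0.624% of kept genes were and the median over kept genes was 0.05. In DMSO none of the 8 was past 2-fold, where 0.0543% of kept genes were lower, and the 8 differences lay between -0.70 (MVD) and -0.13 (GGPS1) beside a median over kept genes of -0.22. Relative to that median HMGCS1 and IDI1 (0.08 each) and GGPS1 (0.09) were on the other side of 0. No member was past 2-fold higher at 24 h, where the share of kept genes was 0.0452% with dTRIM24, 0.00905% with IACS-9571 and 0.163% in DMSO. The difference between effects, 24 h minus 4 h, was most negative for HMGCS1, at -1.68 for dTRIM24 minus DMSO and -2.28 for IACS-9571 minus DMSO. For dTRIM24 minus DMSO it was positive as deposited for PMVK (0.49), FDPS (0.20), MVD (0.19) and GGPS1 (0.13). The median over kept genes for dTRIM24 against DMSO also rose, from -0.01 at 4 h to 0.26 at 24 h. Relative to that median only PMVK rose, from -0.12 at 4 h to 0.10 at 24 h. On that scale MVD went from 0.55 to 0.47, FDPS from 0.13 to 0.06 and GGPS1 from 0.03 to -0.11. For IACS-9571 minus DMSO the difference between effects was positive for PMVK (0.06). The difference between effects was not tested.

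Downstream of FDPS, the branch to cholesterol showed the same kind of values. All 12 listed enzymes from squalene to cholesterol were kept and lay above DMSO at 4 h. With dTRIM24 4 were past 2-fold higher, where 0.67% of kept genes were, with a median of 0.81 against -0.01 for all kept genes. With IACS-9571 6 were past 2-fold higher, where 0.253% of kept genes were, with a median of 1.03 against 0.00 for all kept genes. FDFT1, the squalene synthase that draws on farnesyl diphosphate, had 170 FPKM in dTRIM24 and 208 FPKM in IACS-9571, against 96.3 FPKM in DMSO. SQLE (squalene epoxidase), CYP51A1 and MSMO1 (sterol demethylation) and DHCR7 (a sterol reductase) were the 4 past 2-fold with both compounds, by 1.54, 1.24, 1.504 and 1.01 with dTRIM24 and by 1.90, 1.47, 1.70 and 1.39 with IACS-9571. HSD17B7 and FDFT1 were past it with IACS-9571 (1.06 and 1.10) and not with dTRIM24 (0.81 each). Among 7 genes that control SREBP only INSIG1, an endoplasmic reticulum retention protein, passed 2-fold, by 1.67 with dTRIM24 and 1.88 with IACS-9571. The 7 had medians of 0.10 with dTRIM24 and 0.07 with IACS-9571, and 3 of them lay below DMSO with each compound. SREBF2, which encodes SREBP-2 itself, differed by 0.10 with dTRIM24 and 0.38 with IACS-9571.

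The other branches had smaller differences from DMSO at 4 h. The 11 genes of prenyl transfer and prenyl protein processing had medians of 0.12 with dTRIM24 and 0.02 with IACS-9571, and none passed 2-fold. The 9 genes that use isoprenoids for dolichol, ubiquinone, tRNA or haem had a median of -0.04 with either compound, with none past 2-fold. The 9 listed small GTPases that carry a prenyl anchor had medians of -0.05 with dTRIM24 and -0.03 with IACS-9571, with none past 2-fold. Only 0.67% of kept genes with dTRIM24 and 0.253% with IACS-9571 were past 2-fold higher. A count of 0 in lists this small is therefore near the background. Upstream, the 4 genes that supply or use cytosolic acetyl-CoA had medians of 0.22 with dTRIM24 and 0.41 with IACS-9571. ACLY, which makes acetyl-CoA from citrate, had 95.0 FPKM in dTRIM24 and 112 FPKM in IACS-9571, against 77.4 FPKM in DMSO.

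**Figure D4:**
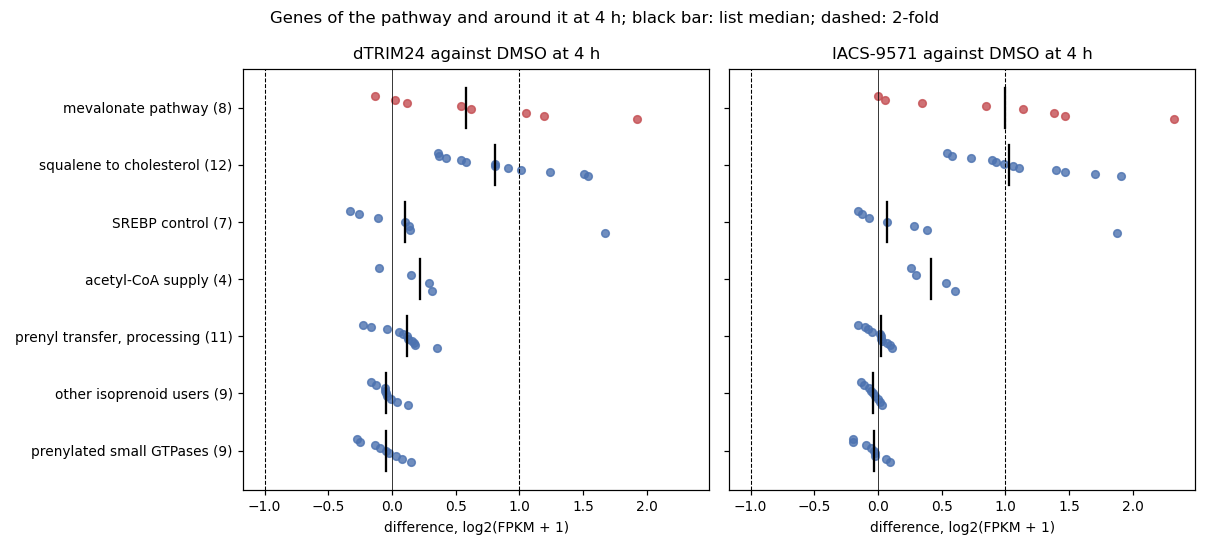
Each point is 1 gene, placed by its difference of log2(FPKM + 1) from DMSO at 4 h with dTRIM24 (left) and IACS-9571 (right). Rows are gene lists with their size, black bars are list medians and dashed lines mark 2-fold. The 8 mevalonate pathway genes (red) have a median of 0.58 with dTRIM24 and 0.99 with IACS-9571. The squalene to cholesterol list has 0.81 with dTRIM24 and 1.03 with IACS-9571. The SREBP control row and the 3 lowest rows have medians between -0.05 and 0.12.

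The members did not share 1 profile over the 6 group means. With each gene's log2(FPKM + 1) values centred on their own mean, ACAT2 lay nearest to the median profile of the 8, at a root mean square difference of 0.07. HMGCS1 at 0.56, GGPS1 at 0.42 and PMVK at 0.41 lay farthest, HMGCS1 for its large and the others for their small differences between groups. Among 8343 other genes that reached 5 FPKM, the 8 most like this median profile lay within 0.13. They included FDFT1 at 0.08, C14orf1 at 0.09, PPARD at 0.10, HSD17B7 at 0.11, LSS at 0.12 and TM7SF2 at 0.13. Of the 8, 5 belong to the squalene to cholesterol list of 12 genes. TM7SF2 is 1 of these and reached 5 FPKM only with IACS-9571 at 4 h. It had 5.06 FPKM there and 1.77 to 3.71 FPKM in the other groups. PPARD, a nuclear receptor outside the sterol lists, had 9.28 FPKM in dTRIM24 and 11.9 FPKM in IACS-9571, against 5.91 FPKM in DMSO at 4 h. Likeness over 6 means is a description only.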

How the data were processed

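The authors deposited FPKM values as 1 mean per group, from TopHat2 and Cuffnorm with hg19 as the build (per the submitters' processing notes). Cell numbers were equalised and ERCC spike-ins added, per the labels' protocols. Groups follow titles and time points, although the treatment protocol in the labels says 24 h throughout. From the values, columns look scaled to the spike-ins.

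Spike-ins and small RNAs (by name) were dropped and genes reaching 1 FPKM in a group were kept. Differences are of log2(FPKM + 1), threshold 1. The planned limma fit needs values per library, so nothing was tested. The arithmetic was tested on simulated data. Members, lists and motifs were chosen with earlier results of these data known. Named genes are members, listed genes past 2-fold, paralogs, neighbours and genes most like the median profile. SREBF2, ACLY, ELANE, AZU1, LYZ, CEBPA, SPI1, HOXA9, CD33, MEIS1, MPO, ITGAM, CSF1R and the copy FDPSL2A were named after their values were seen. Some genes that the rule names are not reported here. Neighbours and promoters are RefSeq on GRCh38.p14, not the authors' build. Transcript GC content (GENCODE, by symbol, 92.7% of kept genes) gave a cubic trend that 1 alternative removed. The others were pseudocounts of 0.1 and 0.5 FPKM, no filter, a filter of 5 FPKM, centring on medians, quantiles or spike-ins, and a 1.5-fold threshold. Python 3.11.15, numpy 2.4.6 and pandas 2.3.3 were used.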

Additional observations from a re-analysis of the deposited data

How the results depend on the processing

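No paired analysis was possible because the table holds 1 mean per group, and for the same reason no replicate could be left out. Of 162 counts of members past the threshold under the alternatives, 159 stayed within 1.5 times the count as reported, but most of these were 0 in both. The other 3 came with the 1.5-fold threshold, which added MVD, and with it a count of 1 in place of 0, to dTRIM24 against IACS-9571 at 4 h (lower), to dTRIM24 against DMSO at 24 h (higher) and to DMSO at 24 h against 4 h (lower). All 8 members were above 5 FPKM in every group, so the alternatives on the filter could not change a member. At 4 h against DMSO the 4 higher members with IACS-9571 became 5 at 1.5-fold, and the 3 with dTRIM24 became 4. At 24 h against 4 h the 5 lower members with IACS-9571 became 4 with median centring, quantile normalization or the GC trend taken out, and 6 at 1.5-fold. The 3 with dTRIM24 became 4 at 1.5-fold. No called member changed sign. ACAT2 in IACS-9571 at 24 h against 4 h was past 2-fold as reported and at -0.95 with median centring, -0.91 with quantile normalization and -0.97 with the GC trend taken out. Over all alternatives HMGCS1 stayed between 1.82 and 1.96 above DMSO with dTRIM24 at 4 h and between 2.23 and 2.37 with IACS-9571. MVK with dTRIM24 at 4 h, the call nearest the threshold there, stayed between 1.04 and 1.18.

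The counts of all kept genes, which give the background shares, moved more, by over 1.5 times in 70 of 162 cases. Against DMSO at 4 h the 28 higher genes with IACS-9571 became 59 with a pseudocount of 0.1 FPKM and 62 at 1.5-fold, while the 74 higher genes with dTRIM24 stayed within 1.5 times. With dTRIM24 at 24 h the 15 higher genes became 88 with a pseudocount of 0.1 FPKM, 5 with median centring and 524 at 1.5-fold, and the 7 lower ones 28, 19 and 26. With IACS-9571 at 24 h against 4 h the 48 lower genes became 29 with median centring. The cause was not tested. Depth is unknown, so counting error could not be given for any member.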
